A study of Glycine max with 4 samples.

Results

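Broad binding sites of moderate enrichment were examined in soybean embryos, as a set of 435 genomic sites out of 9806 that had a peak in both replicates of a chromatin immunoprecipitation experiment. A site was a one-to-one pair of peaks, 1 from each replicate, in which the overlap covered at least 50% of both peaks. Sites belonged to the set when the replicate 1 peak was at least 700 bp wide and the deposited fold enrichment was below 12 in both replicates. They were set against 1439 narrower sites of similar enrichment, under 500 bp in replicate 1 and 5-fold to 12-fold in both. A further set of 736 sites shared the width limit but reached at least 12-fold in both replicates, and is called broad and strong here.

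Chromatin was immunoprecipitated and sequenced (ChIP-seq) to map where the protein of the locus GLYMA.08G357600 occupies the genome. All 4 samples were early maturation embryos of the soybean cultivar Williams 82, taken from seeds of 6 to 7 mm, and no transgene or treatment is named in the labels. The 2 ChIP samples, biological replicates 1 and 2, were precipitated with an antibody against amino acids 487 to 502 of the protein, and the 2 input samples were chromatin without precipitation. The peak lists of the ChIP replicates were compared, and the input libraries were not analysed on their own. Whole embryos hold several cell types, so a weak peak in all cells and a strong peak in some cells cannot be told apart. Read totals per library, and so the depth, are unknown here. Replicate 1 had 15774 peaks on the 20 chromosomes and replicate 2 had 10894. No test between conditions was possible with 2 libraries of 1 group, so differences between sets of sites are described, each replicate on its own. The sites are not replicates of a condition, and 95% intervals below cover counting over sites only.

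During early maturation the embryo turns from growth by cell division to the storage of protein and oil, a program run by transcription factors that bind short DNA motifs near their target genes. In ChIP-seq, fragments pulled down from 1 occupied motif pile up around it, so that the summit, the position with the most fragments, lies near the middle of a peak about as wide as a few fragments. A peak caller marks every base where the pileup passes a threshold, and strong sites therefore also reach farther from their summits. A peak becomes lopsided when fragments extend farther to 1 side of the summit than to the other. Neighbouring occupied motifs closer than a peak's width can merge into a single peak. Motifs and genes at the sites were not analysed here.

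The sites had been chosen by width and enrichment, so these values are given as a description. Median width in replicate 1 was 776 bp, ranging from 700 to 1610 bp, which is 3.32 times the narrowest peak of that list (234 bp). In replicate 2 the median was 601 bp with a range of 365 to 1217 bp, or 2.77 times the narrowest peak of 217 bp. Only 41 of the 435 sites reached 1000 bp in replicate 1, and 9 reached it in both replicates. Fold enrichment, the authors' ratio of ChIP pileup to the local background under the summit, had medians of 8.22 and 6.63 in replicates 1 and 2. The lowest values were 3.01-fold and 2.83-fold. The narrower sites had medians of 6.78-fold and 6.22-fold, so the enrichment of the sets was close but not equal. Of the broad sites, 111 lay below 5-fold in at least 1 replicate, a range that the narrower sites did not cover, and the other 324 lay between 5-fold and 12-fold in both.

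Both limits cut through a continuous distribution. Just inside the width limit were 3 sites of 700 bp, and just outside were sites of 699, 699 and 698 bp. Between 690 and 699 bp there were 29 shared sites below 12-fold, and between 700 and 709 bp there were 40. At the enrichment limit, the higher of the replicates' folds was 11.99, 11.97 and 11.96 just inside, and 12, 12.03 and 12.06 just outside. Broad peaks were uncommon among weak sites. Of the shared sites with 4-fold to 6-fold enrichment in replicate 2, 3.69% (3.10 to 4.36%, exact Clopper-Pearson, as for all shares) were at least 700 bp wide in replicate 1. The share was 31.1% (27.3 to 35.2%) at 10-fold to 12-fold and 91.9% (88.5 to 94.6%) at 20-fold and above.

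**Figure D1:**
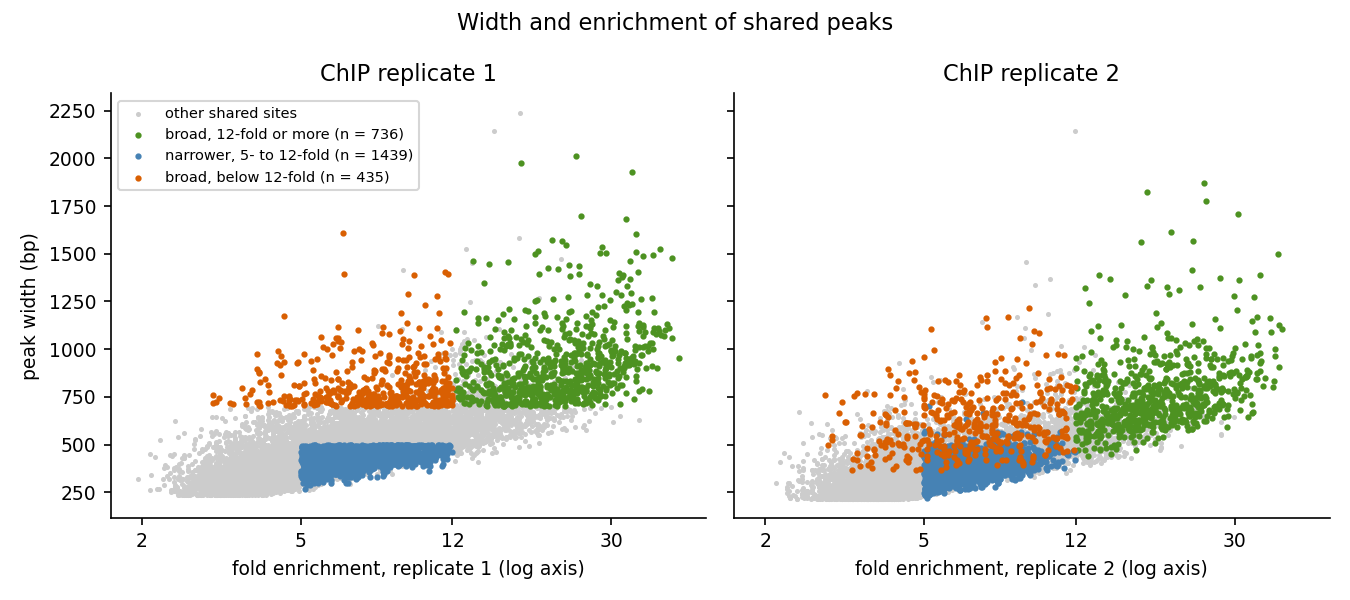
Peak width in bp against fold enrichment (log axis) for shared sites in ChIP replicate 1 (left) and replicate 2 (right), 1 point per site, with the broad moderate, narrower and broad strong sets coloured and all other shared sites in grey. In replicate 2, which did not set the width limit, the broad moderate sites spread from 365 to 1217 bp and partly overlap the narrower sites.

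Replicate 1 alone had 614 peaks on chromosomes with a width of at least 700 bp and less than 12-fold enrichment. Of these, 465 had a one-to-one counterpart in replicate 2, or 75.7%, where 62.2% of all replicate 1 peaks had one. The counterpart was at or above 12-fold at 30 of them, which left the 435 sites. In replicate 2, 208 peaks met the same limits and 202 of them were paired, or 97.1%, against 90.0% of all its peaks.

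Summits of broad moderate sites lay farther from the middle of the peak than those of narrower sites. Summit position was not part of the rule, but it varied with the width and fold that were. Asymmetry was taken as the distance of the summit from the peak's centre divided by the distance from centre to edge, so that 0 is a centred summit and 1 a summit at an edge. Its median was 0.290 (0.261 to 0.314) in replicate 1 and 0.265 (0.237 to 0.296) in replicate 2, a mean of 0.277 ± 0.0172 (SD, n = 2). At narrower sites the medians were 0.0769 and 0.0959, with a mean of 0.0864 ± 0.0134 (SD, n = 2). The gap of 0.191 between the sets was several times the difference between replicates within either set. It was 0.119 with a width limit of 600 bp and 0.255 with 800 bp, so it is not independent of the limit that chose the sites. In bp, the summit lay a median of 115 bp from the centre in replicate 1 and 74.5 bp in replicate 2, against 16.5 and 17.5 bp at narrower sites. At the 324 broad sites between 5-fold and 12-fold in both replicates, the medians were 0.269 and 0.242, still above those of the narrower sites.

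Width alone did not go with such asymmetry at strong sites. The broad strong sites had median asymmetries of 0.129 in replicate 1 and 0.107 in replicate 2, although their median widths, 874 and 726.5 bp, exceeded those of the moderate sites. An asymmetry of at least 0.2, a limit set after the values were seen, was reached in both replicates by 198 of 435 broad moderate sites, or 45.5% (40.8 to 50.3%), where 12.5% of all shared sites reached it. The count was 29 of 1439 narrower sites, or 2.02% (1.35 to 2.88%), and 123 of 736 broad strong sites, or 16.7% (14.1 to 19.6%). Within the broad moderate set, asymmetry was highest at the weakest sites. Those with a mean fold under 5 had medians of 0.395 and 0.339 in replicates 1 and 2 (58 sites), and those at 9-fold and above had 0.226 and 0.210 (121 sites). The 118 sites that were at least 700 bp wide in both replicates had medians of 0.371 and 0.426.

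**Figure D2:**
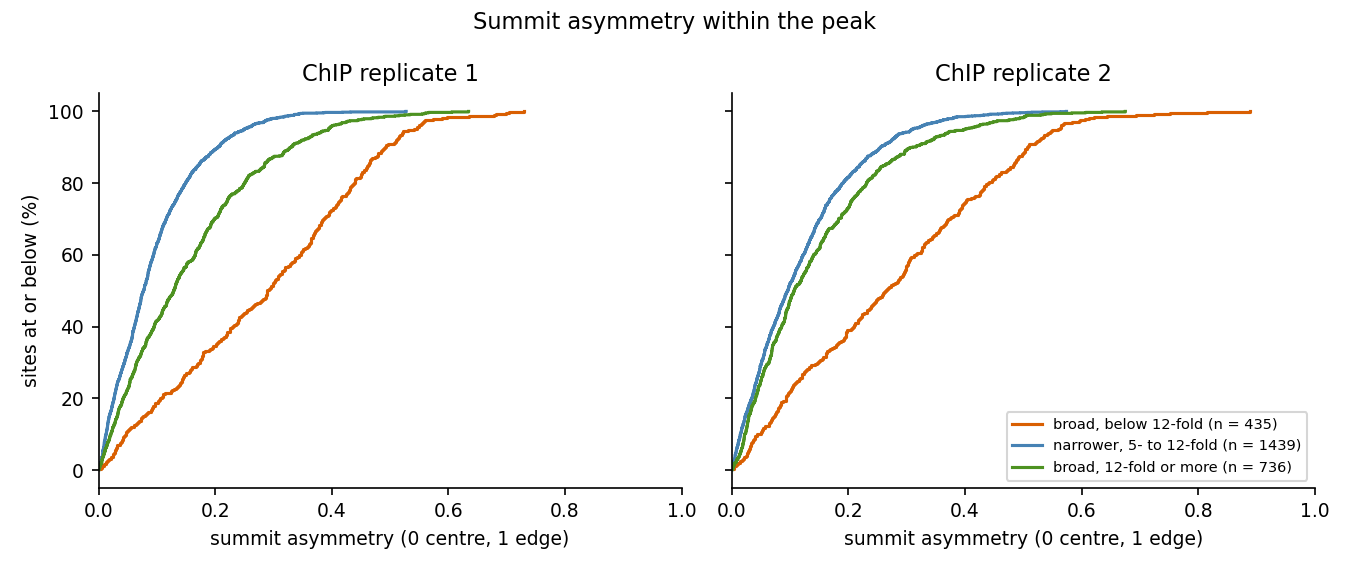
Cumulative share of sites (%) by summit asymmetry (0 at the peak centre, 1 at an edge) in ChIP replicate 1 (left) and replicate 2 (right), 1 line per set of sites. The broad moderate line lies to the right of the other lines in both replicates, with medians of 0.290 and 0.265.

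The arms on either side of the summit show where the extra width lay. In replicate 1 the shorter arm of a broad moderate site had a median of 284 bp and the longer arm 504 bp. In replicate 2 the arms were 210 and 378 bp. At narrower sites the arms were 197 and 229 bp in replicate 1 and 165 and 200 bp in replicate 2. By these medians, more of the extra width of broad sites lay in the longer arm than in the shorter arm, in both replicates. The longer arm was picked at each site, which by itself favours this. Broad strong sites showed the same, with arms of 368 and 492 bp in replicate 1 and 315 and 403.5 bp in replicate 2. The long arm pointed to neither end of the chromosome more often: the summit lay toward the end coordinate at 51.7% (46.9 to 56.5%) of the sites in replicate 1 and at 48.5% (43.7 to 53.3%) in replicate 2, near the 48.8% and 47.7% of all shared sites.

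The long arm lay on the same side in both replicates at most sites. The summit was on the same side of the centre at 314 of 435 broad moderate sites, or 72.2% (67.7 to 76.3%), where 57.3% of all shared sites were so placed. At narrower sites the count was 775 of 1439, or 53.9% (51.2 to 56.5%), and at broad strong sites 524 of 736, or 71.2% (67.8 to 74.4%). With sides taken from replicate 1 alone, the arm of replicate 2 had a median of 337 bp on the long side and 225 bp on the short side. At narrower sites these were 185 and 181 bp. Taken the other way, the arms of replicate 1 were 469 bp on the side long in replicate 2 and 319 bp on the other. Across sites, the position of the summit from the start edge to the end edge had a Pearson correlation between replicates of 0.558 over 435 broad moderate sites and 0.0939 over 1439 narrower sites. It was 0.699 over 736 broad strong sites and 0.248 over all 9806 shared sites, so that broad strong sites had the higher value of the broad sets. The correlations are descriptions, since the sites share 2 libraries and narrower sites had less room for the summit to vary.

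**Figure D3:**
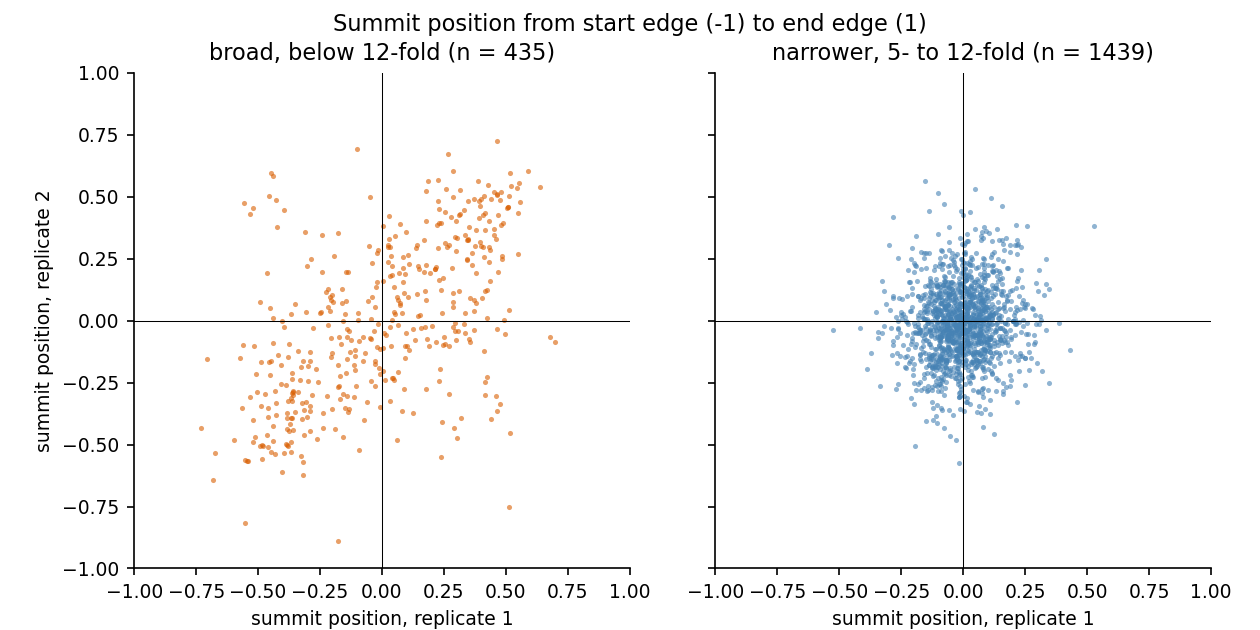
Summit position within the peak in replicate 2 against replicate 1, from −1 at the start edge through 0 at the centre to 1 at the end edge, 1 point per site, for broad moderate sites (left) and narrower sites (right). Most broad moderate sites lie in the lower left and upper right quadrants, where the summit is on the same side in both replicates (72.2%), whereas narrower sites gather around the centre.

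By the limit of 0.2, the broad moderate sites fell into classes that were set after the values were seen and get no test. The largest had a lopsided peak with the same long side in both replicates, at 169 sites. Their summits lay a median of 22 bp apart between replicates, and their arms were 247 and 554 bp in replicate 1 and 196 and 467 bp in replicate 2. Their widths agreed best, with a median ratio of replicate 2 to replicate 1 of 0.838. At 83 sites, or 19.1% against 51.9% of all shared sites, the summit was centred in both replicates. These 83 had arms of 350 and 414 bp in replicate 1 and the highest enrichment of the classes, 9.27-fold and 7.69-fold. At 154 sites the peak was lopsided in 1 replicate only, a share of 35.4% that was near the 35.6% of all shared sites. At 29 sites it was lopsided in both but to opposite sides, and these had the lowest enrichment, 5.70-fold and 4.98-fold. Of the 198 broad moderate sites lopsided in both replicates, opposite sides made up 14.6% (10.0 to 20.4%) and the same side 85.4%. Over all shared sites lopsided in both, 319 of 1225 had opposite sides, or 26.0%, and 906 the same side, or 74.0%. The share with opposite sides was 37.9% (20.7 to 57.7%) at such narrower sites. At such broad strong sites it was 1.63% (0.198 to 5.75%).

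The 5 sites with the strongest asymmetry shared by both replicates illustrate the largest class. On chromosome 10, at 48806692 to 48807691 in replicate 1, the summit stood 159 bp from the start edge and 840 bp from the end edge, and the arms in replicate 2 were 149 and 688 bp. On chromosome 1, at 51683418 to 51684418, the arms were 224 and 776 bp in replicate 1 and 92 and 904 bp in replicate 2. The site on chromosome 11 at 6918488 to 6919445 had arms of 214 and 743 bp and then 175 and 625 bp. Short and long arms were in the other order on chromosome 15 at 12181563 to 12182408, with 671 and 174 bp in replicate 1 and 623 and 153 bp in replicate 2. The same held on chromosome 13 at 34230557 to 34231445, with 690 and 198 bp and then 578 and 165 bp. Enrichment at the 5 sites ran from 5.41-fold to 8.34-fold in replicate 1 and from 4.72-fold to 6.10-fold in replicate 2. All positions are those of the deposited lists, on a build not given in the sources used here.

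Most summits of broad moderate sites moved little between replicates, but some moved far. The median distance between the replicates' summits was 30 bp (26 to 34 bp), against 23 bp (22 to 24 bp) at narrower sites and 14 bp (12 to 15 bp) at broad strong sites. Summits more than 100 bp apart were found at 44 of 435 sites, or 10.1% (7.45 to 13.3%), where 4.53% of all shared sites had them. Narrower sites had 10 of 1439, or 0.695% (0.334 to 1.27%), but a peak under 500 bp leaves less room for a shift. Broad strong sites, which have more room, had 4 of 736, or 0.543% (0.148 to 1.39%). The medians depended on weak sites. With fold between 5 and 12 in both replicates the broad sites had a median of 24.5 bp, 1.5 bp above the narrower sites. Summits over 100 bp apart were found at 16 of these 324 sites, or 4.94% (2.85 to 7.90%). Their median folds, 9.04 and 7.53, exceeded the 6.78 and 6.22 of narrower sites, so enrichment was not matched. Within the broad moderate set the median shift was 57.5 bp at a mean fold under 5 and 19 bp at 9-fold and above. Among the 111 sites below 5-fold in at least 1 replicate the median was 47 bp, and 28 had summits over 100 bp apart.

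At 20 sites, or 4.6% (2.83 to 7.01%) against 0.571% of all shared sites, the summits were more than 200 bp apart, with a median of 331 bp and a range of 214 to 583 bp. These sites lay on 16 chromosomes. At 18 of them the summit changed sides, which a shift of this size between overlapping peaks by itself favours. At 14 the fold was below 5 in at least 1 replicate, where 25.5% of all broad moderate sites and 49.6% of all shared sites were. Each summit lay inside the other replicate's peak at 431 of all 435 broad moderate sites, or 99.1%, near the 99.3% of all shared sites. The widest separation was on chromosome 20 at 36867122 to 36868525, where the summits were 583 bp apart and the fold was 11.5 in replicate 1 and 4.32 in replicate 2. There the replicate 1 summit, at 36867350, fell before the start of the replicate 2 peak at 36867740. On chromosome 14, at 46183313 to 46184704, they were 551 bp apart with 6.41-fold and 5.22-fold. The next were on chromosomes 11, 9 and 13, with 428, 425 and 396 bp. On chromosome 9, at 40449251 to 40450142, both replicates had nearly the same enrichment, 5.36-fold and 4.90-fold, but the summit lay 213 bp from the start edge in replicate 1 and 212 bp from the end edge in replicate 2. On chromosome 11, at 9354189 to 9355062, folds of 3.93 and 4.03 likewise went with summits near opposite edges.

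At the other extreme the summits coincided to the base. The 5 widest such sites lay on chromosomes 4, 2, 5, 11 and again 4. The one on chromosome 2, at 42734218 to 42735023, had its summit at 42734707 in both replicates, with widths of 806 and 783 bp and 9.99-fold and 11.6-fold enrichment. The second on chromosome 4, at 49134907 to 49135726, was 820 bp wide in replicate 1 and 442 bp in replicate 2 around the same summit, with 613 bp before it in the first and 209 bp in the second.

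**Figure D4:**
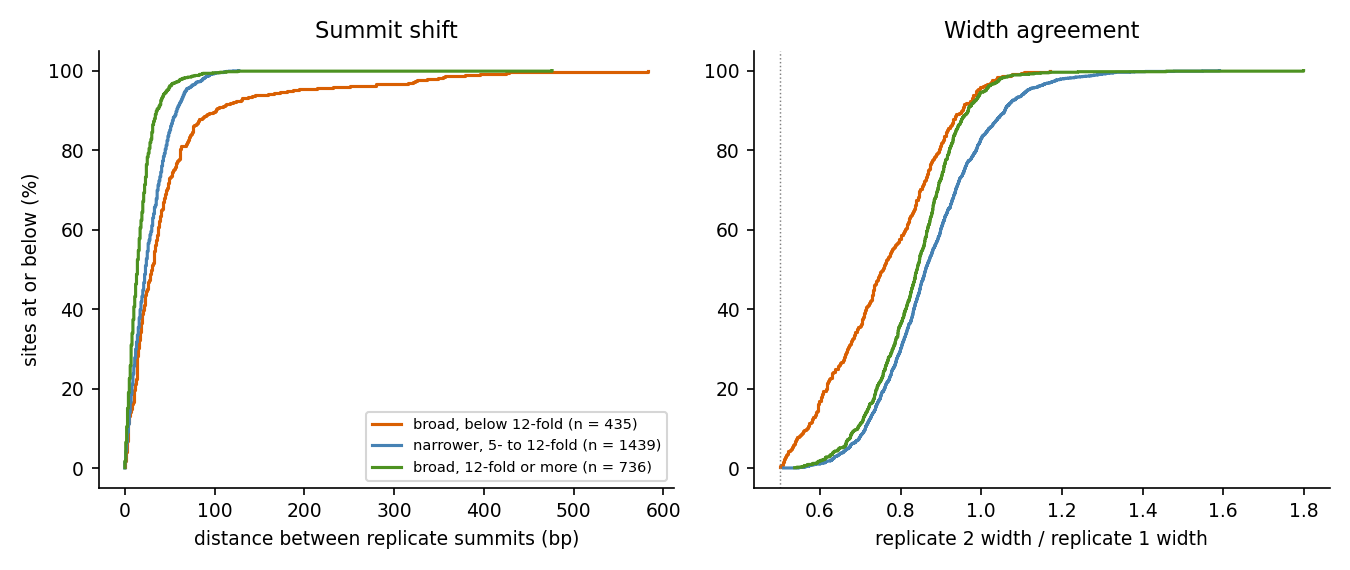
Left, cumulative share of sites (%) by distance between the replicates' summits in bp; right, cumulative share by replicate 2 width divided by replicate 1 width, with the lower limit of 0.5 set by the pairing rule as a dotted line, 1 line per set of sites. The broad moderate line has a tail of summits far apart, 20 sites above 200 bp, and the lowest width ratios, with a median of 0.756.

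The ratio of replicate 2 to replicate 1 width had a median of 0.756 (0.735 to 0.779) at broad moderate sites, 0.862 (0.855 to 0.872) at narrower sites and 0.841 (0.831 to 0.85) at broad strong sites. The set was chosen for wide peaks in replicate 1, and the order turned when the width limits were set on replicate 2 instead. The ratio then exceeded that of the narrower sites by 0.119. The pairing rule keeps the ratio above 0.5. In replicate 2, 118 sites, or 27.1% (23.0 to 31.6%), were still at least 700 bp wide, where 6.65% of all shared sites were. Another 100 sites, or 23.0% (19.1 to 27.2%), were under 500 bp, against 75.4% of all shared sites. Broad strong sites reached 700 bp in replicate 2 at 57.2% (53.5 to 60.8%). Across sites, the widths of the replicates had a Pearson correlation of 0.622 over the broad moderate sites, 0.424 over narrower sites, 0.817 over broad strong sites and 0.879 over all shared sites, sets that span different ranges of width. The replicate 2 peak lay wholly within the replicate 1 peak at 325 of the 435 sites, or 74.7% (70.4 to 78.7%), where 63.3% of all shared sites were so nested. The share was 58.2% (55.6 to 60.8%) at narrower sites and 77.3% (74.1 to 80.3%) at broad strong sites. The edges of the replicate 2 peak stood a median of 81 bp inside the start edge and 75 bp inside the end edge. Choosing sites by replicate 1 width favours such nesting. Among the 118 sites at least 700 bp wide in both replicates the nested share was 55.1% (45.7 to 64.3%). There the edges stood 44 and 43.5 bp inside. At 9 sites the replicate 1 peak also overlapped an additional peak of replicate 2, which happened at 0 of the 1439 narrower sites. A replicate 1 peak under 500 bp leaves less room for this, and counts for broad strong and all shared sites are not given here.

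The 10 broadest sites, by mean width over both replicates, reached 1362 bp. The broadest was on chromosome 4 at 4092458 to 4094067, 1610 bp wide in replicate 1 and 1114 bp in replicate 2, with 6.38-fold and 7.21-fold enrichment and summits 62 bp apart near the middle. The site on chromosome 15 at 6458823 to 6460214 measured 1392 and 1168 bp, with 11.7-fold and 8.13-fold. On chromosome 17, at 15256027 to 15257304, widths of 1278 and 1217 bp went with 11.0-fold and 9.16-fold, and the summit stood 324 and 300 bp from the start edge. On chromosome 12, at 5863173 to 5864289, the widths were 1117 and 1162 bp and the summits 9 bp apart, toward the end edge in both replicates. On chromosome 6, at 4381744 to 4382882, widths of 1139 and 1096 bp, folds of 9.26 and 9.42 and summits 2 bp apart made the replicates nearly identical. The site on chromosome 10 at 49418448 to 49419678 measured 1231 and 1086 bp with 10.3-fold and 9.71-fold. Of the remaining sites, those on chromosomes 14 (46183313) and 20 were named above for their distant summits. The second site on chromosome 14, at 17501556 to 17502641, had widths of 1086 and 1061 bp and a central summit in both. The site on chromosome 13 at 34055852 to 34057239 was 1388 bp wide in replicate 1 and 777 bp in replicate 2, with summits only 6 bp apart. By the limit of 0.2, 5 of the 10 were lopsided to the same side in both replicates, the site on chromosome 20 with its distant summits among them, and 2 were centred in both.

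Broad sites, moderate and strong alike, lay somewhat closer to other binding sites than narrower sites did. The nearest other shared summit was a median of 11802 bp away (9895 to 13056 bp), against 16336 bp (15043 to 17830 bp) at narrower sites and 12734 bp (11012 to 14369 bp) at broad strong sites. Another shared summit within 3000 bp was found at 81 of 435 sites, or 18.6% (15.1 to 22.6%), where 16.7% of all shared sites had one, and this share is near that background. At narrower sites it was 15.2% (13.4 to 17.2%). At broad strong sites it was 21.2% (18.3 to 24.3%). Within 10000 bp the share was 45.7% (41.0 to 50.6%) at broad moderate sites, against 38.4% of all shared sites and 36.6% (34.1 to 39.1%) of narrower sites. Broad strong sites had nearly the same share, 44.3% (40.7 to 48.0%). The direction at 3000 bp was not stable: with width limits set on replicate 2, or on both replicates, the difference from narrower sites, 3.4 percentage points as chosen, became −0.656 and −0.734. Of the 81 close neighbours, 30 were stronger than the broad site by mean fold, or 37.0% (26.6 to 48.5%). The share was 49.6% over all shared sites, 38.8% (32.3 to 45.6%) at narrower sites and 7.69% (4.04 to 13.1%) at broad strong sites. Limits on fold chose these sets, so the shares of stronger neighbours follow in part from the choice and are given as a description. The neighbour lay on the side of the long arm of replicate 1 at 52 of 81 sites, or 64.2% (52.8 to 74.6%), and on that of replicate 2 at 45, or 55.6% (44.1 to 66.6%), against 52.5% (45.7 to 59.3%) and 53.9% (47.0 to 60.6%) at narrower sites and 52.1% and 50.6% over all shared sites. The intervals of the sets overlapped.

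The 5 broad sites nearest to another summit were 592 to 775 bp from it. The closest, on chromosome 10 at 4233059 to 4233791, had 11.6-fold and 8.4-fold enrichment and a neighbour with a mean fold of 4.67. On chromosome 17, at 529427 to 530183, the site had 10.5-fold and 10.8-fold enrichment and its neighbour, 749.5 bp away, 8.64-fold. The others lay on chromosome 12 at 15681541, chromosome 3 at 33243159 and chromosome 9 at 34955337. All 5 had summits no more than 36 bp apart between replicates. At each of the 5 the neighbour's mean fold was lower than that of the broad site.

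Along the chromosomes, the broad moderate sites followed the shared sites as a whole. The outer 25% at either end held 354 of 435 sites, or 81.4% (77.4 to 84.9%), where 78.0% of all shared sites lay, and narrower sites had 77.4% (75.2 to 79.6%). The first and last 10% together held 40.7% (36.0 to 45.5%), near the 40.0% of all shared sites. Every chromosome had at least 8 such sites, and the 20 chromosomes together had 0.459 per Mb. They were 435 of the 9806 shared sites. By chromosome, this share ranged from 2.54% (1.10 to 4.94%) on chromosome 16 to 6.93% (4.79 to 9.64%) on chromosome 19. Chromosomes 4 and 11 had the most, 33 each, out of 482 and 518 shared sites, or 6.85% (4.76 to 9.48%) and 6.37% (4.43 to 8.83%). Chromosome 11 had the highest density, 0.954 per Mb, but the density of all shared sites is not given here, so this value has no background beside it. Chromosome 13 was the only one with fewer sites in its outer parts than between them, 11 of 24. The outer share of all shared sites on that chromosome is not given here, so the count has no background beside it.

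**Figure D5:**
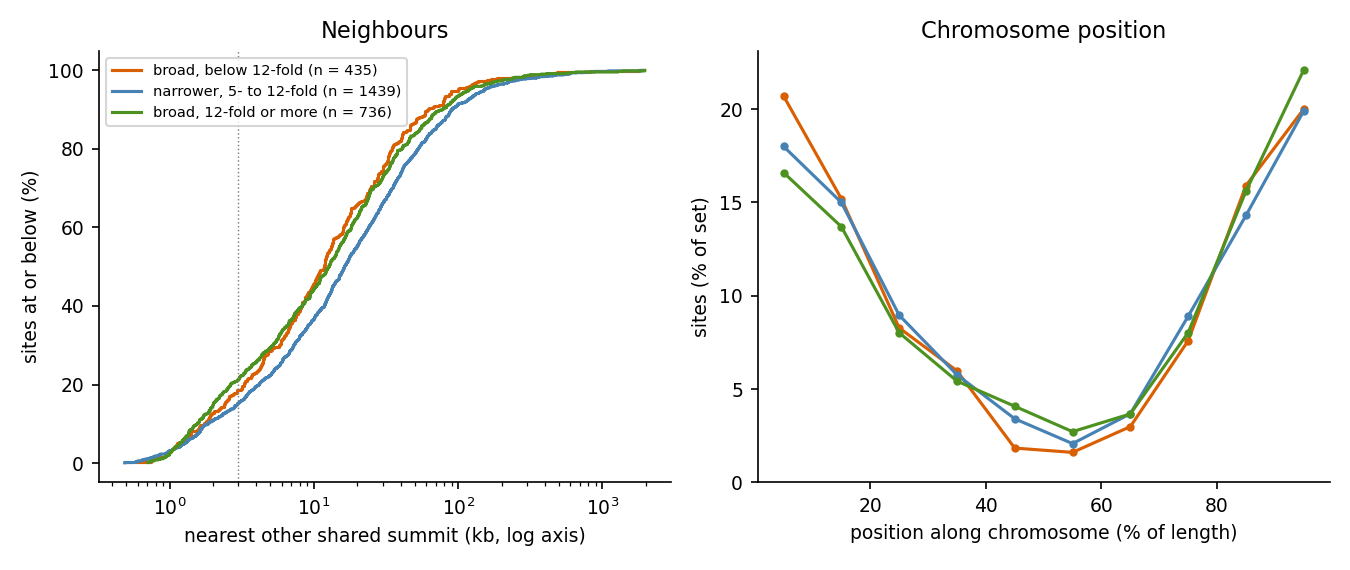
Left, cumulative share of sites (%) by distance to the nearest other shared summit in kb (log axis, dotted line at 3 kb); right, share of each set (%) in successive bins of 10% of the chromosome length, 1 line per set. Broad moderate sites have nearer neighbours than narrower sites (medians of 11802 and 16336 bp), and all sets are sparse in the chromosome middles.

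Fragment pileups recovered from the deposited values placed these sites on a background close to that of the narrower sites. Median summit height was 93 ChIP fragments in replicate 1, with a range of 37 to 186, and 69 in replicate 2, with a range of 29 to 154. Narrower sites had medians of 78 and 60, and the broad strong sites with −log10 p below 300, for which it could be recovered, had 226 (505 sites) and 191 (695 sites). Pileup follows from the enrichment that chose the sites and is given as a description. The local background under the summit was 10.5 in replicate 1 (10.05 to 10.8) and 7.60 in replicate 2 (7.34 to 7.81), against 10.07 and 7.00 at narrower sites. In replicate 2 the heights count whole fragments, but the background is on the pileup scaled by 0.846, so their ratio is not the fold. Within each replicate the backgrounds of the sets differed by less than those of the replicates, whose pileup scales were unlike. A pileup of this size carries a counting error, and how far that error moves summits or edges was not tested.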

How the data were processed

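Per the labels' protocols, embryos were crosslinked for 10 minutes in 1% formaldehyde, chromatin was sonicated to 100 to 500 bp, 1 ug of antibody was used and libraries had 15 PCR cycles. Per the submitters' processing notes, Bowtie 0.12.7 and MACS2 were used, with build, MACS2 version, filters and threshold not given in the sources used here. Each ChIP replicate has its own narrowPeak list, as deposited by the authors. The deposited fold is a ratio of summit pileup to local background, given with the −log10 of its p-value and q-value. The deposited score, 10 times the −log10 q, was not used. No peak had a −log10 q below 2.03 (replicate 1) or 2.05 (replicate 2).

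From these values, peaks on chromosomes were paired one-to-one, the largest overlap first. Positions count from 1. Intervals of medians are binomial order-statistic intervals at 95%. Chromosome length was taken as the last peak end. Pileup and background were recovered by solving fold, (pileup + 1)/(background + 1), with the Poisson −log10 p, to within 0.05, for peaks with −log10 p below 300. This succeeded for 100% of them. Pileup steps were scaled by 1 in replicate 1 and 0.846 in replicate 2. Whether PCR copies were removed is not known here. Such copies are not independent molecules, so pileups that hold them carry more than counting error.

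The members, comparison sets and measures were chosen with earlier results of these data known. Sites named are the 10 broadest, the 5 with the largest and the 5 with the smallest summit shift, the 5 most asymmetric to 1 side in both replicates, the 5 nearest to another summit, and 3 on either side of each limit. Alternatives covered limits, overlap, threshold, scaffolds and single replicates. Procedures were tested on simulated data. The tools were pandas 2.3.3, numpy 2.4.6, scipy 1.17.1 and, for plots, matplotlib 3.10.9, under Python 3.11.15.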

Additional observations from a re-analysis of the deposited data

How the results depend on the processing

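The number of sites, 435, was within 1.5 times of that with fold limits of 10 or 15, fold of 5 to 12 in both, a −log10 q of at least 10, an overlap of 1 bp or scaffolds included. It was 1025 with a width limit of 600 bp, 171 with 800 bp, 145 with the limit on replicate 2, 118 on both replicates, 174 with an overlap of 80%, and 208 to 614 in single lists. The difference in asymmetry, 0.191, kept its direction under every alternative run. It was 0.119 at 600 bp, 0.255 at 800 bp, 0.278 with width set on replicate 2, 0.314 on both, 0.265 at 80% overlap and 0.247 to 0.257 in single lists. Divided by the room that a fragment leaves the summit, an alternative added after the data were seen, it was 0.212. The difference in summit shift, 7 bp, was 1.5 bp with fold of 5 to 12 in both sets and 5 to 9 bp otherwise. In that range the broad sites had higher median folds than the narrower sites. The difference in width ratio, −0.106, became −0.150 against sites under 400 bp, −0.163 at 1 bp overlap and −0.0243 at 80%. It turned to 0.119 with width set on replicate 2 and 0.0408 on both. The difference in close neighbours, 3.40 percentage points, was 9.19 within 10000 bp. It reversed to −0.0692 within 1000 bp, −0.656 with width set on replicate 2 and −0.734 on both, and single lists gave 4.72 to 5.72. The outer share exceeded that of narrower sites by 3.96 points and by 2.65 to 6.21 under the alternatives, single lists giving 4.27 to 4.51. The causes were not tested. No paired analysis was possible because a single group, ChIP, was analysed, so that replicate numbers had no partner in another group. Read totals were unknown, so no interval from depth could be given for edges or summits.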

Other observations

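Broad peaks that were not counted as shared are described here by what they overlapped in the other replicate. Of the 614 replicate 1 peaks of at least 700 bp and less than 12-fold, 149 had no one-to-one counterpart, and their median fold was 5.56 against 8.39 for the 465 that had one. Only 23 of the 149 overlapped no replicate 2 peak at all. A single replicate 2 peak met 82 of them, too short or too far to one side for the pairing rule. The other 44 overlapped 2 or 3 peaks of replicate 2. A peak of at least 700 bp has more room to overlap 2 peaks. The same counts over all unpaired replicate 1 peaks are not given here, so these have no background beside them. In the other direction, 6 broad moderate peaks of replicate 2 were unpaired, and 3 of those spanned 2 peaks of replicate 1.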
